A study of Arabidopsis thaliana with 84 samples.

Results

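The genes described here are 4 Arabidopsis transporter and carrier genes grouped for a link with nitrate: NRT2.5 (AT1G12940), AT1G59740, AT5G62720 and AT5G26200. They were taken by name from the platform's probe annotation, in which each has 1 probe set, out of 22810 probe sets on the ATH1 array and 13513 that the annotation pairs with 1 gene. RefSeq's gene table (assembly TAIR10.1) lists AT1G59740 as NPF4.3. All 4 probe sets passed the filter on dim probe sets, both in sorted cells and in roots with protoplasts. The genes were chosen with nitrate responses on these arrays already known, and which values chose each gene is not recorded. Differences between nitrate and KCl are therefore given for them as a description, with no test.

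NRT2.5 belongs to the small NRT2 family of high-affinity nitrate transporters in the plasma membrane and is known in Arabidopsis for its transcript in plants starved of nitrogen. AT1G59740 belongs to the large NRT1/PTR (NPF) family, whose members carry nitrate, peptides, hormones or glucosinolates. AT5G62720 encodes an integral membrane protein of the HPP family, which includes nitrite transporters of the plastid envelope. AT5G26200 belongs to the mitochondrial carrier family, whose members move small metabolites across organelle membranes. In roots, nitrate is taken up at the surface, reduced to nitrite in the cytosol and to ammonium in plastids, and built into glutamine, while part of it is loaded into the xylem in the stele.

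The series comprised 84 arrays in 28 groups of 3 biological replicates, all of Col-0 background, and asked how root cell types respond to nitrate. Plants were 12 days old, grown in hydroponics with 0.5 mM ammonium succinate as the only nitrogen and 3 mM sucrose, and were given KNO3 at 5 mM for 2 h, with KCl at 5 mM as the control. Enzymatic digestion of the walls released the cells, and fluorescence sorting gave 5 populations: stele (Stele), pericycle (Peri), endodermis with pericycle (EndoP), epidermis with cortex (EpiC) and lateral root cap (LRC). Nitrate treatment is called continuous where KNO3 stayed in the digestion solution and transitory where it did not. Each population had continuous nitrate, transitory nitrate and KCl groups. Peri had 3 more, which were KNO3 with 1 mM methionine sulfoximine (MSX, an inhibitor of glutamine synthetase) and 5 mM glutamine, KNO3 with MSX, and KCl with MSX, each agent being kept in the digestion solution. Unsorted protoplasts held on ice and whole roots incubated in the solution without enzymes had continuous, transitory and KCl groups. Whole roots frozen directly had nitrate and KCl groups at 2 h and at 3.5 h. Group membership follows the sample titles, and for EpiC a second label reads continuous KNO3 for all 9 samples, the KCl ones included. The labels name the populations without the fluorescent lines behind them, and do not say how many plants made up a sample.

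RNA of sorted cells (54 arrays) went through two-cycle labelling and RNA of whole roots and protoplasts (30 arrays) through one-cycle labelling, so no value below is compared across the protocols. Of the 30, 4 arrays had a median correlation of 0.283 to 0.559 with the rest (0.738 to 0.927 for the others) and were left out: 2 of incubated roots in KCl, 1 of incubated roots in continuous nitrate and 1 of 2 h roots in KCl. Incubated roots in KCl thus rest on 1 array. Few defining markers had a probe set named in the annotation used here: RCPG of the root cap was higher in LRC and LBD16 of the pericycle was higher in Peri, while none of the 5 markers of EpiC passed the test in EpiC. Of these JKD and AED3 had positive differences there, 0.43 and 0.62 (limma adjusted p = 0.528 and 0.394). The marker of EndoP, GSO1, and that of Stele, LHW, did not pass in their own populations (differences of 0.65 and 0.16, limma adjusted p = 0.239 and 0.824). GSO1 had a larger difference in Peri, 1.14, which did not pass either (limma adjusted p = 0.0918). EXPA7, a marker of EpiC, was higher in EndoP and Stele (limma adjusted p = 0.0352 and 0.0321). In bulk samples, fewer cells of a type and less RNA per cell cannot be told apart. All values are log2 signals of 1 probe set, comparable between groups of 1 protocol and never between genes.

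AT1G59740, the NPF family gene, had the largest range of the 4 genes in sorted cells, 6.06 to 9.86 with a median of 8.74 over 54 arrays. With KCl alone it was low in the outer tissues and high in the inner ones. LRC arrays in KCl read 6.21, 6.39 and 6.52, and EpiC arrays read 6.46, 6.64 and 6.06. EndoP arrays in KCl read 8.69, 8.27 and 8.63, Peri arrays 9.33, 8.82 and 8.20, and Stele arrays 8.25, 8.97 and 9.13. Every outer array lay below every inner array, with no overlap between 6.64 and 8.20. The share of all probe sets that did the same was not counted.

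AT1G59740 fell in LRC by 1.75 ± 0.33 (SE, n = 3 against 12 arrays; limma adjusted p = 0.000144) relative to the mean of the other 4 populations. It fell in EpiC by 1.73 ± 0.33 (limma adjusted p = 0.00111). It rose in Stele by 1.27 ± 0.33 (limma adjusted p = 0.00866), in Peri by 1.26 ± 0.33 (limma adjusted p = 0.0185) and in EndoP by 0.95 ± 0.33 (limma adjusted p = 0.0434), each against the mean of the other 4. The test over all 5 populations gave a limma adjusted p of 5.79e-07, in a comparison where 41.1% of the probe sets tested were called. In the single populations the called share was 23.6% for LRC, 4.21% for EpiC, 16.3% for EndoP, 4.05% for Peri and 20.5% for Stele. The KCl arrays tested here are the ones against which the nitrate differences were measured. The KCl values of all 4 genes, here and in the next paragraphs, are thus not independent of the choice of the genes. The call in EndoP was lost with any 1 EndoP array in KCl left out, and also without LRC replicate 2, EpiC replicate 3, Peri replicate 3 or Stele replicate 1 in KCl (adjusted p = 0.0502 to 0.159), and the Peri call without its KCl replicate 1 or 2 (adjusted p = 0.27 and 0.0792). The Stele call was lost without its KCl replicate 2 or 3 (adjusted p = 0.085 and 0.129).

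**Figure D1:**
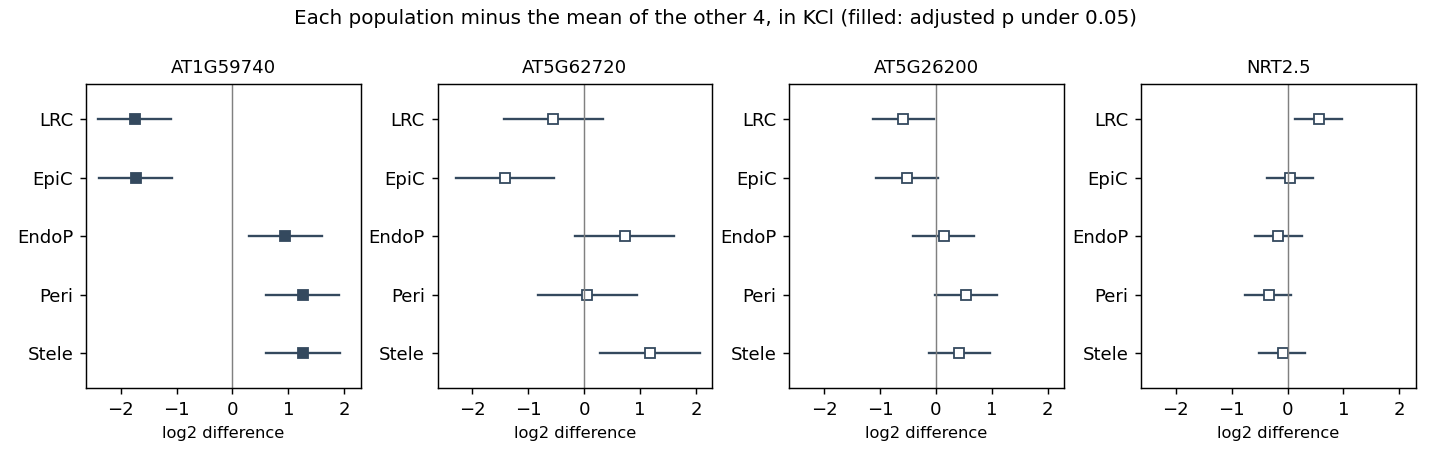
Each population minus the mean of the other 4 in KCl, as a log2 difference with its 95% interval, for each of the 4 genes; filled squares passed the limma test at an adjusted p of 0.05. AT1G59740 has 5 filled squares, negative for LRC and EpiC and positive for the inner populations, and the other 3 genes have none.

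The other 3 genes varied less between populations in KCl. AT5G62720, the HPP family gene, passed the test over all 5 populations (limma adjusted p = 0.0194), but not without EpiC replicate 1 or Stele replicate 2 or 3 (adjusted p = 0.0522, 0.0588 and 0.0675). Its EpiC arrays in KCl read 5.82, 6.02 and 5.87, below all 12 other KCl arrays (6.20 to 8.62), with a difference of -1.42 (limma adjusted p = 0.0627). How many of all probe sets separated in this way was not counted. Stele arrays read 6.90, 8.42 and 8.62, and their difference of 1.18 did not pass either (limma adjusted p = 0.0562). Without Stele replicate 1 both passed (adjusted p = 0.0332 in EpiC and 0.0154 in Stele). The Stele difference also passed without Peri replicate 1 (adjusted p = 0.033). The other differences of AT5G62720 were 0.73 in EndoP, 0.06 in Peri and -0.55 in LRC. AT5G26200, the mitochondrial carrier family gene, was also lower in the outer populations, with a smaller spread, -0.58 in LRC, -0.52 in EpiC, 0.14 in EndoP, 0.42 in Stele and 0.54 in Peri. It did not pass the test over the 5 populations (limma adjusted p = 0.0826) but passed without Peri replicate 2 (adjusted p = 0.0381) or with values as deposited (adjusted p = 0.0499).

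NRT2.5 ran the other way in LRC. Its LRC arrays in KCl read 7.22, 6.81 and 6.75, above all 12 other KCl arrays (6.16 to 6.62), a separation whose share over all probe sets was not counted. The difference of 0.56 ± 0.21 (SE) had a limma adjusted p of 0.0502 and did not pass. It passed without Stele replicate 3 (adjusted p = 0.0485), without the 2 sorted-cell arrays that stood apart (0.0154), with only the arrays compared (0.0222) and as a mean over 3 treatments (0.0374). Elsewhere it moved further from the threshold, with a limma adjusted p of up to 0.395 in other settings. With 1 array left out the adjusted p reached 0.259, and the difference ran from 0.41 to 0.65. Its other populations lay within 0.34 of the mean of the rest. NRT2.5 was a dim probe set throughout, with 26 of 54 sorted-cell arrays above the filter level of 6.49.

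Among the other NPF genes, 32 of 51 listed had a probe set named in the annotation used here and 31 were tested in sorted cells. In LRC 4 rose and 9 fell, in EpiC 3 rose and none fell, in EndoP 6 rose, in Peri 4 rose and 2 fell, and in Stele 2 rose and 7 fell, beside the called shares of all probe sets given above. Single arrays moved these counts. Without 1 EndoP array 0 to 3 rose in EndoP, without LRC replicate 1 only 3 fell in LRC, and without Stele replicate 2 or 3 none rose and 2 or 1 fell in Stele. In EpiC 1 rose without EpiC replicate 2 or 3 and 5 without LRC replicate 2, and in Peri none fell without Peri replicate 1 or 2. GTR2, a glucosinolate transporter, fell by 1.97 in LRC (limma adjusted p = 0.000185), and AT1G72140 rose there by 1.98 (limma adjusted p = 2.4e-05). AT5G13400 rose in LRC by 1.72 and in EpiC by 1.59 (limma adjusted p = 1.18e-05 and 0.000552). In EpiC all 31 had a difference above the -1.73 of AT1G59740, with a median of 0.16 beside 0.04 over all probe sets tested, and in LRC 29 of 31 lay above its -1.75. Of 28 listed mitochondrial carrier genes, 4 had a probe set and none of them passed in any population. AT3G47980, the other HPP family gene with a probe set, passed in none.

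Markers of green shoot tissue differed between the same KCl groups. The 3 of 6 listed with a probe set, LHCB4.1, RCA and PSAE-1, were all higher in EpiC, by 2.22, 2.64 and 2.47 (limma adjusted p = 0.00109, 2.6e-05 and 0.00364). Their summed log2 signal in KCl was 27.99 to 30.45 in EpiC, 22.40 to 26.68 in LRC, 22.94 to 26.30 in Peri, 19.18 to 20.55 in EndoP and 17.71 to 18.79 in Stele. Array signal was also higher in EndoP (236 to 277) and Stele (192 to 314) than in the other 3 populations in KCl (170 to 182). The 3′ GAPDH control probe set exceeded the 5′ one, a difference that grows as RNA is less complete, by 3.4 to 6.047 in LRC, 3.498 to 4.124 in EpiC, 2.724 to 3.558 in EndoP, 2.563 to 3.134 in Peri and 2.62 to 3.692 in Stele (log2). The part of the markers and of GAPDH in the order of the populations was not tested. With array signal as a covariate the EndoP difference of AT1G59740 was 1.02 and did not pass (adjusted p = 0.171), and AT5G62720 did not pass the test over all populations (adjusted p = 0.31).

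In EpiC cells all but NRT2.5 stood higher in nitrate than in KCl on every array. AT1G59740 read 9.10, 9.33 and 8.79 in continuous nitrate and 8.81, 8.91 and 8.92 in transitory nitrate, against 6.46, 6.64 and 6.06 in KCl. The differences were 2.69 and 2.49 (SE 0.42 each), or 6.44-fold and 5.64-fold. The EpiC means in nitrate, 9.07 ± 0.27 and 8.88 ± 0.06 (SD, n = 3), lay among those of Peri and Stele, while the LRC means of 7.33 ± 0.94 and 7.42 ± 0.16 were the lowest of the nitrate groups. The mean of EpiC over the 3 treatments was 0.25 below that of the other populations and did not pass the test (adjusted p = 0.322).

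AT5G62720 read 7.51, 7.76 and 7.38 in continuous and 7.53, 7.76 and 7.36 in transitory nitrate in EpiC, against 5.82, 6.02 and 5.87 in KCl. Both differences were 1.65 (SE 0.57). AT5G26200 read 7.72, 8.19 and 7.55 in continuous and 7.28, 7.63 and 7.31 in transitory nitrate, against 5.68, 5.97 and 6.06 in KCl. Its differences were 1.92 and 1.5 (SE 0.35 each). NRT2.5 read 6.46, 6.67 and 6.87 in continuous and 6.63, 6.43 and 7.12 in transitory nitrate, against 6.54, 6.47 and 6.55 in KCl, so its groups overlapped. Over all probe sets tested in EpiC, 5.51% had every continuous nitrate array, and 3.72% every transitory nitrate array, above every KCl array, and 0.488% and 0.301% were called.

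The other members of the families had smaller nitrate differences in EpiC than AT1G59740, AT5G62720 and AT5G26200. Over the 31 other NPF genes they ran from -1.03 (AT3G21670) to 0.52 (AT1G27040) in continuous nitrate, with a median of 0.04 beside -0.01 over all probe sets, and none passed the test. The highest in transitory nitrate was 0.52 (AT3G01350). The 4 other mitochondrial carrier genes ran from -0.24 (AT5G19760) to 0.62 (AT5G15640) in continuous nitrate. AT3G47980, of the HPP family, had 0.78 and 0.54 and did not pass the test (limma adjusted p = 1 in both). These compare chosen genes with their families and say nothing of how unusual the 4 genes are. In Peri with continuous nitrate, where 18.3% of all probe sets were called, other NPF genes did pass. AT3G45690 and AT1G22540 had differences of 1.84 and 1.75 (limma adjusted p = 0.0275 and 0.034). AT2G40460 and GTR2 had -2.37 and -1.96 (limma adjusted p = 0.0168 and 0.0178). The 4 genes described here differed by -0.16 to 0.51 there. Leaving out 1 array gave 0 to 4 NPF genes rising and 0 to 3 falling.

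The green tissue markers moved with the same contrast in the opposite direction. LHCB4.1, RCA and PSAE-1 fell in EpiC with continuous nitrate, at differences of -2.58, -2.73 and -3.21 (limma adjusted p = 0.0074, 0.00178 and 0.0074), and all 3 also fell with transitory nitrate (limma adjusted p = 0.0237, 0.0133 and 0.0271). Their summed log2 signal in EpiC was 20.57 to 20.69 in continuous nitrate and 18.65 to 24.69 in transitory nitrate, against 27.99 to 30.45 in KCl. The GAPDH difference, 3′ minus 5′, was 2.575 to 3.485 and 2.883 to 4.019 in the nitrate groups, against 3.498 to 4.124 in KCl. The part of either in the nitrate differences in EpiC was not tested.

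**Figure D2:**
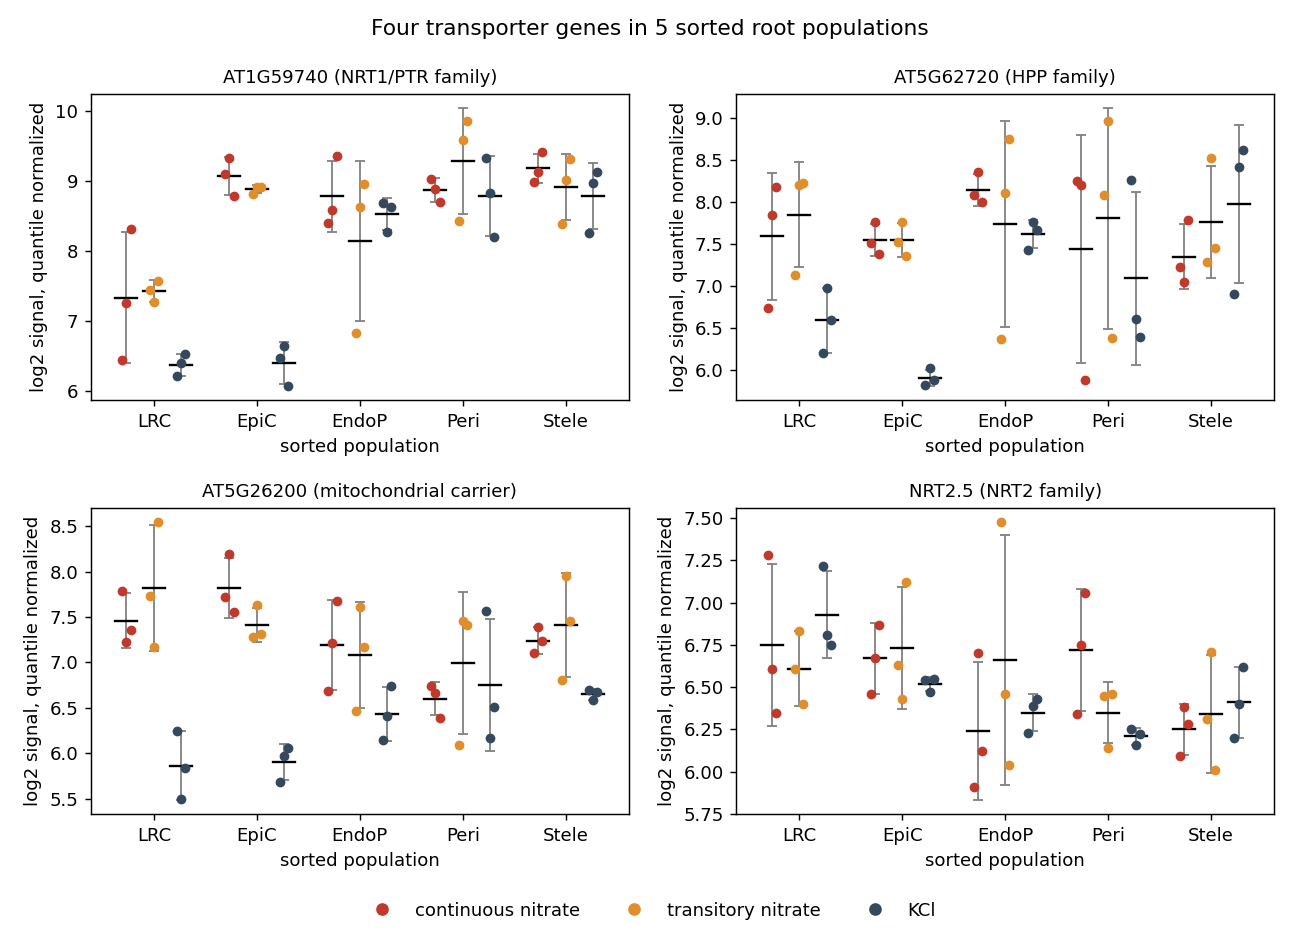
Log2 signal of the 4 genes in the 5 sorted populations, with points for arrays, lines for means and bars for the SD of 3 arrays. In EpiC the nitrate arrays of AT1G59740 lie between 8.79 and 9.33 and its KCl arrays between 6.06 and 6.64, while NRT2.5 overlaps between treatments in nearly every population.

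In LRC the largest nitrate difference of the 4 was that of AT5G26200. It read 7.79, 7.22 and 7.36 in continuous and 7.73, 7.17 and 8.55 in transitory nitrate, against 6.24, 5.49 and 5.84 in KCl. Its differences of 1.60 and 1.96 (SE 0.35 each) came with no overlap of the groups, where 2.74% and 4.53% of all probe sets had every nitrate array above every KCl array and 0% and 0.0104% were called. No green marker passed the test in LRC under nitrate, and their differences ran from -1.25 to -0.25.

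AT1G59740 in LRC read 6.43, 7.25 and 8.31 in continuous and 7.44, 7.26 and 7.57 in transitory nitrate, against 6.21, 6.39 and 6.52 in KCl. Only the transitory group stood clear of KCl, by 1.05 (SE 0.42). AT5G62720 read 6.73, 7.85 and 8.18 in continuous and 7.13, 8.20 and 8.23 in transitory nitrate, against 6.20, 6.98 and 6.59 in KCl, with differences of 0.99 and 1.26 (SE 0.57 each). The first continuous nitrate array of LRC was the lowest of its group for both genes. It was 1 of 2 sorted-cell arrays taken to stand apart, with a median correlation of 0.652 with the other sorted-cell arrays (0.53 for the second). Without both arrays the continuous nitrate differences in LRC were 1.42 for AT1G59740, 1.43 for AT5G62720 and 1.45 for AT5G26200. The first LRC array in KCl, whose median correlation was 0.695, was kept in that setting. NRT2.5 was 0.18 and 0.32 lower in nitrate than in KCl, within its SE of 0.27 or close to it.

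The inner populations showed smaller and less even differences. AT5G26200 in Stele read 7.10, 7.39 and 7.23 in continuous and 6.81, 7.95 and 7.46 in transitory nitrate, against 6.70, 6.59 and 6.67 in KCl. The groups did not overlap, at differences of 0.58 and 0.75 (SE 0.35 each), where 12% and 4.7% of all probe sets did the same. In EndoP it was 0.76 and 0.65 higher in nitrate with overlapping groups. In Peri its differences were -0.16 and 0.24.

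AT5G62720 in Stele was the gene furthest below KCl in nitrate, by -0.63 in continuous and -0.22 in transitory nitrate (SE 0.57), with overlapping groups. Its Stele arrays read 7.22, 7.05 and 7.79 in continuous and 7.29, 8.53 and 7.45 in transitory nitrate, against 6.90, 8.42 and 8.62 in KCl. In EndoP its continuous nitrate arrays (8.09, 8.36 and 8.00) stood above those of KCl (7.43, 7.76 and 7.67), by 0.53, as for 4.83% of all probe sets (3.56% with transitory nitrate). In Peri with continuous nitrate NRT2.5 read 6.34, 6.75 and 7.06, against 6.25, 6.16 and 6.22 in KCl, a difference of 0.51 (SE 0.27) without overlap, as for 18.7% of all probe sets (12.4% with transitory nitrate). In the same contrast JKD and EXPA18, markers of EpiC, read 8.60 to 9.18 and 7.18 to 7.74 in nitrate, against 7.19 to 7.47 and 6.13 to 6.33 in KCl. The other EpiC markers overlapped, EXPA7 with a higher mean in nitrate (8.49, against 6.73) and AED3 with a lower one (6.29, against 6.89). CO2 was nearly level (5.86, against 5.89). The 3 green markers summed to 19.86 to 20.94 in nitrate, against 22.94 to 26.30 in KCl, and array signal was 205 to 372, against 173 to 177. Their part in the difference of NRT2.5 was not tested. AT1G59740 was high in the inner populations with or without nitrate, and its differences there ran from -0.39 in EndoP with transitory nitrate to 0.51 in Peri with transitory nitrate. The first transitory nitrate array of EndoP, the other array that stood apart, read 6.83 for AT1G59740 and 6.37 for AT5G62720, the lowest of its group for both, and 7.48 for NRT2.5, the highest. Without both arrays the transitory nitrate differences in EndoP were 0.26 for AT1G59740, 0.81 for AT5G62720, 0.97 for AT5G26200 and -0.1 for NRT2.5.

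Over the 11 nitrate comparisons in sorted cells, AT1G59740 and AT5G26200 were each higher in nitrate in 10, AT5G62720 in 9 and NRT2.5 in 5. The comparisons of a population share its KCl arrays, and the genes were chosen with nitrate responses known. How many of all probe sets were higher in nitrate as often was not counted. As a mean over the 5 populations, AT5G26200 was 0.94 higher in continuous and 1.02 higher in transitory nitrate (SE 0.16), AT1G59740 0.88 and 0.76 (SE 0.19), and AT5G62720 0.58 and 0.71 (SE 0.26). NRT2.5 had 0.04 and 0.05 (SE 0.12), with intervals of -0.19 to 0.28 and -0.18 to 0.29. The nitrate link in the name of the group thus does not show for NRT2.5 in these values. Its probe set was dim, with 26 of 54 sorted-cell arrays above the filter level of 6.49, so a change could be missed. Of 20 listed genes of nitrate reduction and assimilation, 3 had a named probe set. These 3 encode 6-phosphogluconate dehydrogenases, which supply reducing power through the pentose phosphate pathway, and are not themselves enzymes of nitrate reduction. Of them 2 rose with continuous nitrate over the 5 populations: AT5G41670 by 2.02 (limma adjusted p = 0.00354) and AT1G64190 by 1.44 (limma adjusted p = 0.00775), where 0.452% of all probe sets were called. AT5G41670 also rose with transitory nitrate, by 1.68 (limma adjusted p = 0.0299), where 0.296% were called.

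**Figure D3:**
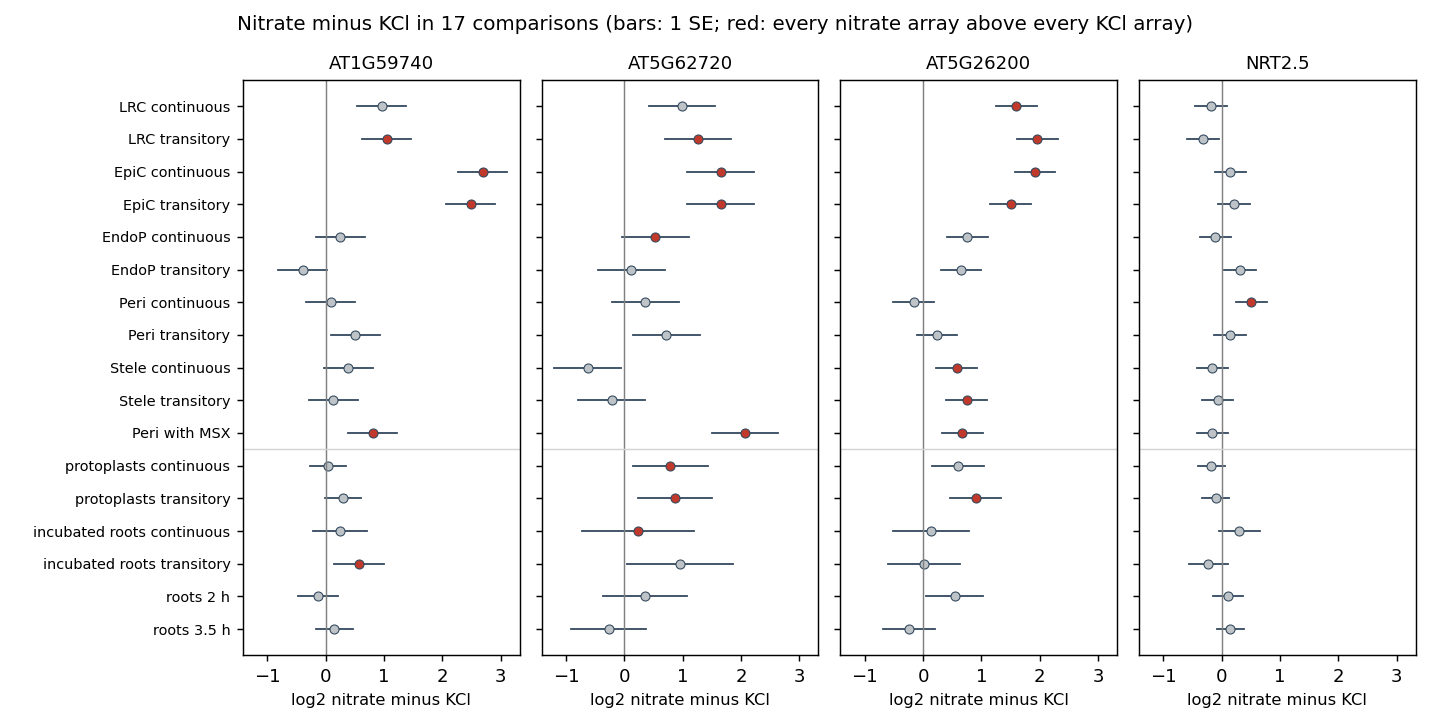
Log2 difference of nitrate minus KCl (points) with 1 SE (bars) for the 4 genes in 17 comparisons, sorted cells above the grey line and protoplasts and roots below it; red points have every nitrate array above every KCl array. AT1G59740 reaches 2.69 in EpiC, AT5G26200 reaches 1.96 in LRC, AT5G62720 reaches 2.07 in Peri with MSX, and NRT2.5 stays between -0.32 and 0.51.

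Keeping nitrate in the digestion solution made no difference that passed the test. As a mean over the 5 populations, continuous minus transitory nitrate was 0.12 for AT1G59740 (95% interval -0.25 to 0.49), -0.13 for AT5G62720 (-0.63 to 0.38), -0.08 for AT5G26200 (-0.39 to 0.23) and -0.01 for NRT2.5 (-0.25 to 0.22), each with a limma adjusted p of 1. With limma 0% of all probe sets were called in this comparison, and 183 of 19258 had an unadjusted p under 0.05. In protoplasts the same differences ran from -0.31 for AT5G26200 to -0.08 for AT5G62720 and NRT2.5 (limma adjusted p = 1 for all 4). Every continuous array lay above every transitory one for 0.612% of all probe sets there and below for 1.83%. There too 0% were called, with 103 at an unadjusted p under 0.05.

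In Peri cells MSX and glutamine can bear on whether a response comes from nitrate or from its assimilation. Without MSX the continuous nitrate differences there were 0.09 for AT1G59740, 0.36 for AT5G62720 and -0.16 for AT5G26200, each smaller than its SE. NRT2.5 had 0.51 (SE 0.27). No group had glutamine without MSX, so glutamine alone was not measured. AT1G59740 read 9.84, 9.73 and 9.55 with nitrate and MSX, against 9.03, 8.88 and 8.70 with continuous nitrate alone. These groups did not overlap, at a difference of 0.84 ± 0.42 (SE) that did not pass the test (limma adjusted p = 0.186). AT5G26200 read 7.33, 6.97 and 7.55 with nitrate and MSX, against 6.74, 6.66 and 6.39 with nitrate alone, again without overlap and without passing (0.69, limma adjusted p = 0.201). Under other processing the difference ran from 0.26 to 0.84 for AT1G59740 and from 0.31 to 0.77 for AT5G26200. All arrays with MSX lay above all without for 16.4% of the probe sets, and 9.08% were called. GSO1 read 8.98 to 9.26 with MSX, against 6.56 to 8.53 without it. It was listed as a marker of EndoP, but its mean in KCl was 8.84 in Peri and 8.45 in EndoP. Of the EpiC markers AED3 was higher (6.97 to 8.01, against 5.75 to 6.81) and JKD lower (6.99 to 7.27, against 8.60 to 9.18). EXPA7 and EXPA18 overlapped, and CO2 met at 6.04. The GAPDH difference overlapped (3.162 to 3.837, against 2.806 to 4.143). Array signal was 175 to 289 with MSX, against 205 to 372 without it. The part of the markers and of array signal was not tested.

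AT5G62720 had the widest spread in Peri. It read 9.13, 8.72 and 7.70 with nitrate and MSX, against 8.25, 8.21 and 5.87 with continuous nitrate alone, a difference of 1.07 (limma adjusted p = 0.217) that ran from 0.29 (without replicate 3 of nitrate alone) to 1.48 with 1 array left out. Under other processing this difference ran from 0.35 to 1.75. With MSX in both groups, nitrate minus KCl was 2.07 (SE 0.57) for AT5G62720, whose KCl arrays with MSX read 6.76, 6.60 and 5.99. The same difference was 0.81 (SE 0.42) for AT1G59740 and 0.67 (SE 0.35) for AT5G26200, and all 3 genes had every nitrate array above every KCl array, as 2.59% of all probe sets did. NRT2.5 had -0.16 there. The GAPDH difference also separated these groups, at 3.162 to 3.837 with nitrate and MSX, against 4.052 to 4.399 with KCl and MSX, and its part was not tested.

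Glutamine given with nitrate and MSX left AT1G59740 at 8.17, 9.23 and 8.68, against 9.84, 9.73 and 9.55 without glutamine. AT5G62720 read 7.25, 7 and 7.59 with glutamine, against 9.13, 8.72 and 7.70 without it. Both genes had every glutamine array below the rest, as 9.63% of all probe sets did. The differences of -1.01 for AT1G59740 and -1.24 for AT5G62720 did not pass the test (limma adjusted p = 0.272 and 0.346), and 0.696% of all probe sets were called. The GAPDH difference was 3.973 to 5.329 with glutamine, against 3.162 to 3.837 without it, and GSO1 read 6.84 to 8.11, against 8.98 to 9.26. Their part was not tested. AT5G26200 stayed at 7.51, 7.06 and 7.58 with glutamine, a difference of 0.10 (interval -0.59 to 0.80), and every glutamine array lay above the rest for 8.34% of all probe sets.

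Against continuous nitrate alone, MSX with glutamine differed by 0.79 for AT5G26200 (limma adjusted p = 0.231, no overlap, as for 13.1% of all probe sets), and 3.68% were called. AT1G59740 and AT5G62720 differed by -0.17 and -0.16 in that comparison. Under other processing the difference of AT5G26200 ran from 0.46 to 0.83. The green markers summed to 21.10 to 26.23 with MSX and glutamine, against 19.86 to 20.94 with nitrate alone. The GAPDH difference was 3.973 to 5.329, against 2.806 to 4.143, and array signal 188 to 211, against 205 to 372. Their part was not tested. In KCl, MSX gave 6.63, 6.77 and 6.76 for NRT2.5, against 6.25, 6.16 and 6.22 without it, a difference of 0.51 ± 0.27 (SE) without overlap that did not pass (limma adjusted p = 0.68). Such a shift without overlap was found for 9.91% of all probe sets (9.46% in the other direction), and 0.0675% were called. The other 3 genes had differences of -0.64 to 0.12 there. The GAPDH difference was 4.052 to 4.399 with MSX in KCl, against 2.563 to 3.134 in KCl alone, and its part was not tested.

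Of the 31 other NPF genes 2 rose and none fell with MSX in nitrate, where 9.08% of all probe sets were called, GTR2 by 2.27 (limma adjusted p = 0.00286) and AT3G53960 by 1.03 (limma adjusted p = 0.0468). GTR2 averaged 10.31 with nitrate and MSX and 8.04 with nitrate alone, beside 10 in KCl alone. With MSX and glutamine against nitrate alone 4 rose, among them AT2G40460 by 2.49 (limma adjusted p = 0.00234) and AT5G14940 by 1.68 (limma adjusted p = 0.00316). Without replicate 2 of nitrate with MSX 7 rose and 2 fell in the first comparison, and 1 rose without its replicate 1 or 3 or without replicate 2 or 3 of nitrate alone. In the second 1 rose without replicate 2 of the glutamine group and 2 without replicate 3 of nitrate alone. None passed for MSX in KCl or for glutamine with MSX. None of the 4 other mitochondrial carrier genes passed in any of these comparisons.

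**Figure D4:**
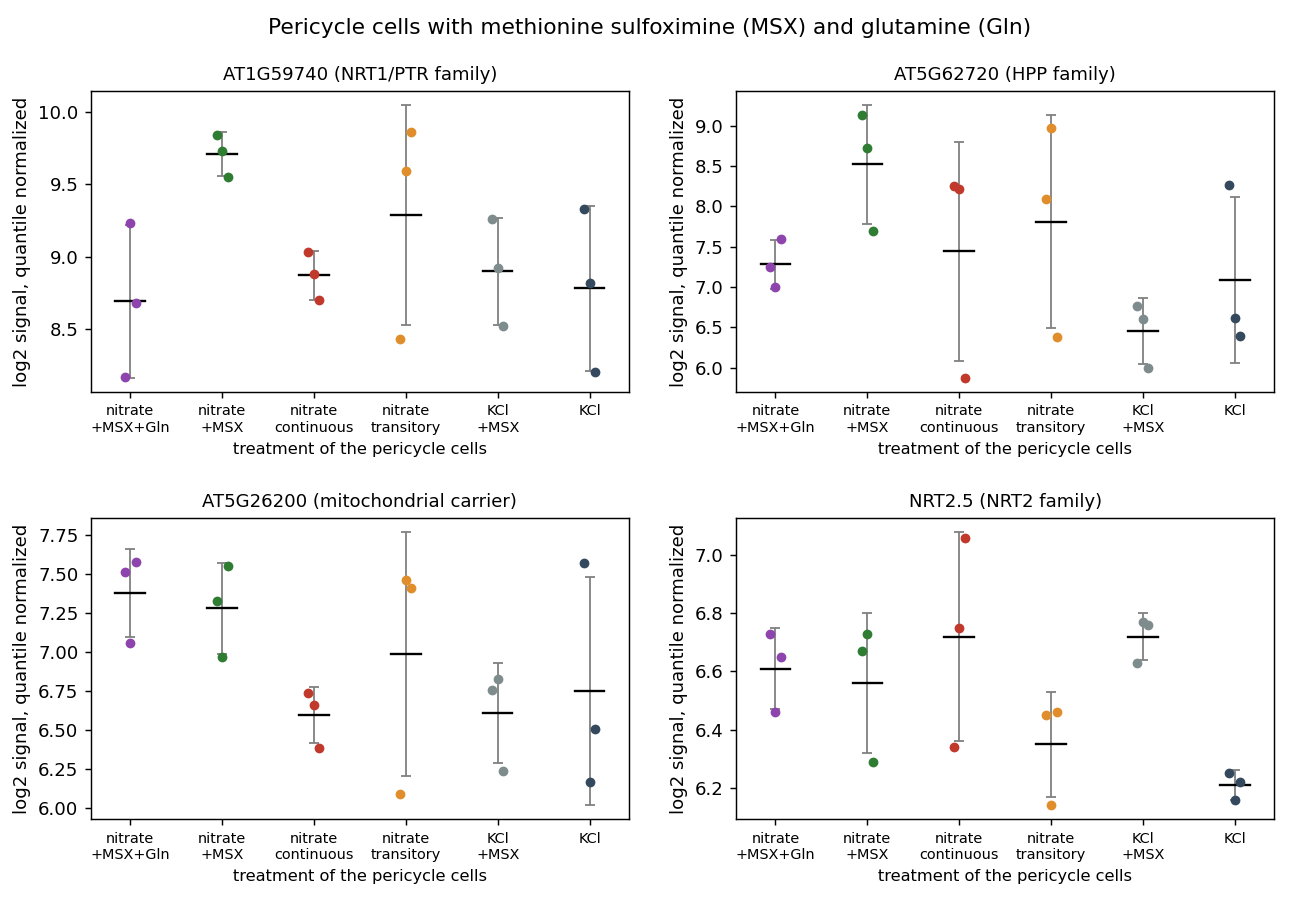
Log2 signal of the 4 genes in Peri cells under 6 treatments, with points for arrays, lines for means and bars for the SD of 3 arrays. AT1G59740 and AT5G62720 are highest with nitrate and MSX, at means of 9.71 and 8.52, and their arrays with glutamine all lie below these.

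In protoplasts and whole roots the differences of AT1G59740 between nitrate and KCl were small. Protoplasts read 6.70, 6.50 and 6.34 in continuous and 6.64, 6.78 and 6.85 in transitory nitrate, against 5.95, 6.52 and 6.95 in KCl, with full overlap. Intact roots read 6.99, 7.09 and 7.15 in nitrate at 2 h, against 7.44 and 6.97 in KCl, and 7.51, 6.73 and 6.75 in nitrate at 3.5 h, against 7.45, 6.75 and 6.34 in KCl. The differences were -0.13 and 0.15 in the intact roots, each smaller than its SE. The sorted and unsorted material was labelled by different protocols, and the difference between them was not tested.

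AT5G62720 and AT5G26200 did stand higher with nitrate in protoplasts. AT5G62720 read 6.59, 6.04 and 6.42 in continuous and 6.45, 6.17 and 6.67 in transitory nitrate, against 5.44, 5.46 and 5.79 in KCl. The groups did not overlap, at 0.79 and 0.87 (SE 0.64), as for 3.46% and 2.74% of all probe sets. AT5G26200 read 6.30, 6.55 and 6.11 in transitory nitrate, against 5.30, 5.54 and 5.42 in KCl, without overlap at 0.90 (SE 0.44). Its continuous nitrate arrays read 6.18, 6.47 and 5.39, the last of them within the range of KCl.

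In intact roots at 3.5 h the replicates of both genes lay further apart than the treatments. AT5G62720 read 7.02, 7.54 and 5.27 in nitrate, against 7.47, 7.77 and 5.38 in KCl, with the lowest value of both groups in replicate 3. Within a replicate number, nitrate minus KCl was -0.45, -0.23 and -0.12 for AT5G62720 and -0.51, -0.18 and -0.02 for AT5G26200. In all 3 pairs both genes were thus slightly lower in nitrate, while AT1G59740 had 0.06, -0.02 and 0.40. Across all genes, same-numbered arrays of these 2 groups deviated together, with correlations of 0.84, 0.72 and 0.73. The labels do not say what the number marks.

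At 2 h AT5G62720 read 6.42, 7.04 and 6.60 in nitrate, against 7.54 and 5.12 in KCl, and AT5G26200 read 6.83, 5.98 and 5.66, against 6.36 and 4.88. With 2 KCl arrays that far apart, the differences of 0.36 (SE 0.72) and 0.54 (SE 0.49) carry little precision. Within replicate numbers 2 and 3, nitrate minus KCl at 2 h was -0.50 and 1.48 for AT5G62720 and -0.38 and 0.78 for AT5G26200. In incubated roots the KCl group is a single array, against which 44.5% and 39.1% of all probe sets had every continuous and every transitory nitrate array higher. The transitory nitrate differences there were 0.57 for AT1G59740, 0.95 for AT5G62720, 0.02 for AT5G26200 and -0.23 for NRT2.5, and 0.86, 1.02, 0.39 and -0.7 with all 30 arrays fitted. At 2 h, with all 30 arrays, AT5G62720 and AT5G26200 differed by 0.48 and 0.55, AT1G59740 by 0.19 and NRT2.5 by -0.25. NRT2.5 read 4.92 to 6.10 over the 26 arrays kept, with 6 above the filter level of 5.5, and its nitrate differences ran from -0.23 to 0.30.

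Digestion was compared with intact tissue. The KCl arrays used for this also served as the reference of the nitrate differences. Their values are thus not independent of the choice of the genes. AT5G26200 read 5.30, 5.54 and 5.42 in protoplasts in KCl, against 6.62, 7.27 and 5.87 in roots frozen at 3.5 h. The groups did not overlap, as for 12.6% of all probe sets, and the difference of -1.17 ± 0.44 (SE) did not pass (limma adjusted p = 0.0978). With the replicate number as a block it passed (adjusted p = 0.0376), but correlations of -0.06 to 0.02 between same-numbered arrays of these groups show no pairing. AT5G62720 differed by -1.31 (limma adjusted p = 0.207; -2.06 to -0.87 with 1 array left out), AT1G59740 by -0.37 (-0.62 to -0.07) and NRT2.5 by 0.16. In this comparison 8.23% of all probe sets were called, and of 24 other NPF genes 2 fell, AT3G45710 by 1.5 and AT1G68570 by 0.61 (limma adjusted p = 0.0386 and 0.0161). Leaving out 1 array gave 0 to 7 falling.

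Against incubated roots in transitory nitrate, protoplasts differed by 0.32 for AT5G26200, 0.10 for NRT2.5, -0.21 for AT5G62720 and -0.26 for AT1G59740, and none passed (limma adjusted p = 0.582 to 0.835), where 17.1% of all probe sets were called and 7 of 24 other NPF genes fell and 1 rose (none with any 1 array left out). Between 3.5 h and 2 h roots the differences ran from -0.22 for AT1G59740 to 0.58 for AT5G26200, and none passed (limma adjusted p = 0.373 to 0.83), where 2.8% were called.

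**Figure D5:**
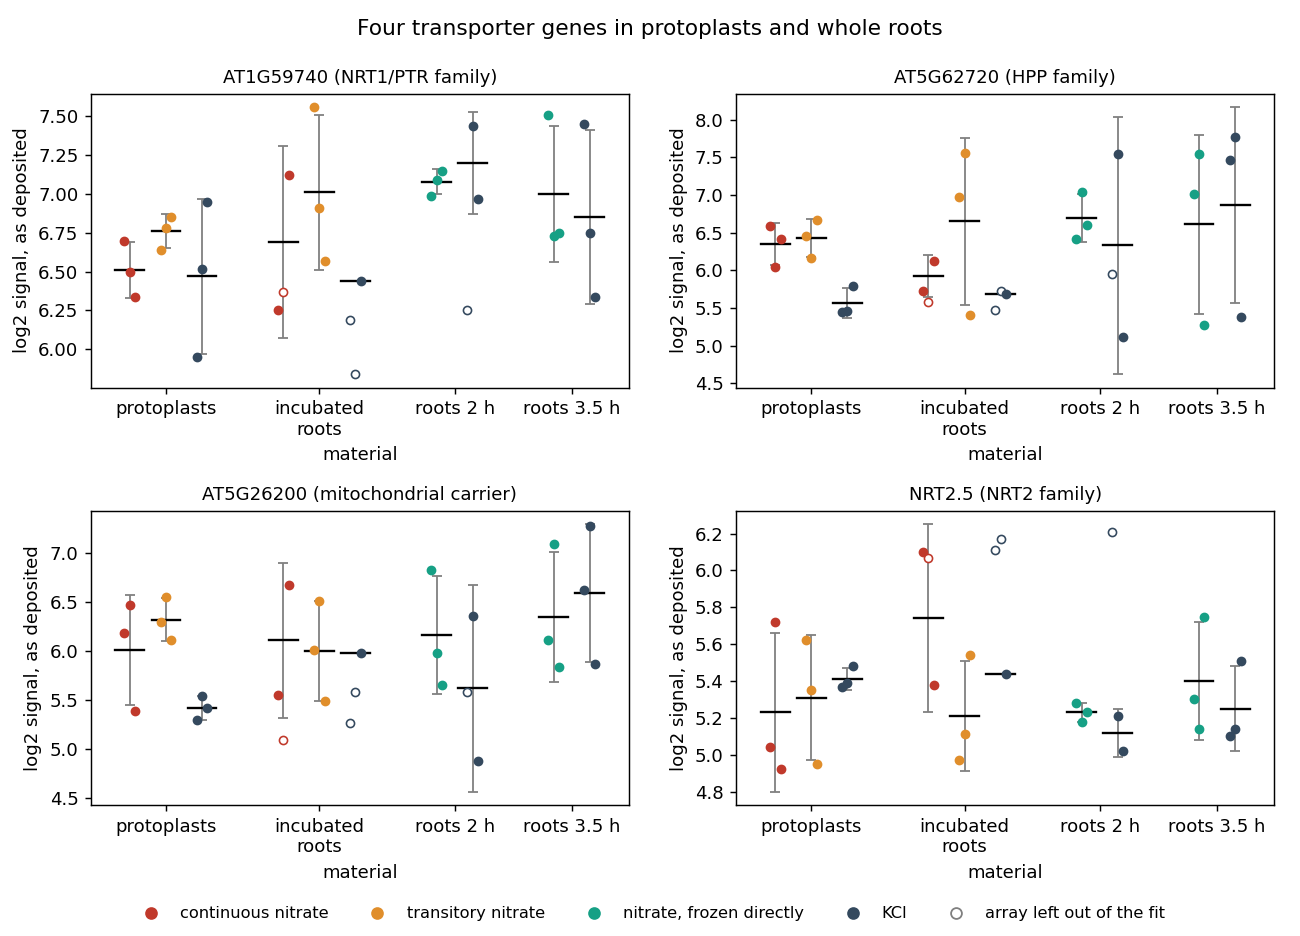
Log2 signal of the 4 genes in protoplasts and whole roots, with points for arrays, lines for means and bars for the SD over the arrays kept; hollow points are arrays left out. AT5G62720 and AT5G26200 are higher with nitrate in protoplasts, while in intact roots in KCl at 2 h AT5G62720 read 7.54 and 5.12.

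Set in order of group means, neighbouring groups of a gene nearly always overlapped in their arrays. AT1G59740 was highest in Peri with nitrate and MSX (9.71 ± 0.15), and lowest in LRC and EpiC in KCl (6.37 ± 0.16 and 6.39 ± 0.30). AT5G26200 was highest in EpiC with continuous nitrate (7.82 ± 0.33) and LRC with transitory nitrate (7.82 ± 0.69), and lowest in EpiC and LRC in KCl (5.90 ± 0.20 and 5.86 ± 0.38). The step between its EndoP and EpiC groups in KCl, 0.53, was free of overlap, and how many of all probe sets had such a step was not counted. AT5G62720 was highest in Peri with nitrate and MSX (8.52 ± 0.74) and lowest in EpiC in KCl (5.90 ± 0.10), and its neighbours in sorted cells all overlapped. NRT2.5 spanned 6.21 ± 0.05 in Peri in KCl to 6.93 ± 0.26 in LRC in KCl (SD, n = 3 throughout). All other neighbours overlapped, apart from AT5G62720 in incubated roots with continuous nitrate over KCl, where KCl was 1 array.

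The genes were compared over the 18 group means of sorted cells, which come from the same arrays for every gene. Pearson's r was 0.64 between AT5G62720 and AT5G26200, 0.58 between AT1G59740 and AT5G62720 and 0.46 between AT1G59740 and AT5G26200. After removal of the group means, r over the 54 arrays was 0.27, 0.48 and 0.46 for the same pairs. NRT2.5 correlated with none of them positively in sorted cells, from -0.44 to -0.08 over group means. The genes were chosen with nitrate responses on these arrays known, so these correlations are not independent of that choice. No background of r over other pairs of probe sets was computed.

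Of 11075 other probe sets with 1 gene, those most like AT1G59740 over the 18 group means were TBL28, a gene of the trichome birefringence-like family (r = 0.843), AT5G48960 (0.842) and AT1G73600 (0.795). For AT5G26200 they were AT1G16170 (0.838), AT3G07350 (0.829) and AT5G41670 (0.820), the last a 6-phosphogluconate dehydrogenase gene. For AT5G62720 they were AT4G28020 (0.758), AT5G34820 (0.730) and AT3G16880 (0.723). For NRT2.5 they were AT2G34910 (0.843), EULS3 (0.826), which encodes a lectin, and AT2G30350 (0.811).

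Over the 10 group means of protoplasts and roots, with 9598 probe sets compared, AT5G62720 had AT3G47980, the other HPP family gene, among its 3 nearest (r = 0.935), with AT1G80380 (0.959) and AT3G52360 (0.942). The nearest to AT1G59740 were AT1G32700 (0.969), AT2G20050 (0.965) and PMEAMT, a phosphoethanolamine N-methyltransferase (0.95). AT5G26200 was nearest to AT4G33960 (0.855), and NRT2.5 to AT5G55680 (0.948). None of the genes nearest to a member in sorted cells was among its 3 nearest in roots and protoplasts.

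In RefSeq's gene table (assembly TAIR10.1), NRT2.5 lies between AT1G12935 and RSH2, AT1G59740 between TH7 and ARF1, AT5G62720 between AT5G62710 and AT5G62730, and AT5G26200 between AT5G26190 and AL4. AT5G62730, the neighbour of AT5G62720, is itself on the NPF list, and its probe set was too dim to be tested in sorted cells.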

How the data were processed

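Expression was measured on ATH1 arrays. The deposited values are log2 signals per probe set, computed by the authors, and software and normalization are not given in the sources used here. They run from 0 to 14.463, a range that fits log2 signals and no linear ones. The experiment files of single arrays hold scanner settings and were not used. The 64 Affymetrix controls were left out. In the platform's annotation 13513 probe sets have 1 gene, 503 have several and 8794 have none here; probe sets with several genes name no gene.

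Arrays of sorted cells and of roots with protoplasts were fitted apart. Sorted-cell values were quantile normalized because array medians spanned 1.04, over a limit of 1, and the others were used as deposited (span 0.303). One-cycle arrays with a median Pearson correlation under 0.7 with the rest were left out. A probe set was tested if 3 or more arrays exceeded the 40th percentile of the protocol's values, which left 19258 in sorted cells and 17152 in roots and protoplasts. Each group had 1 coefficient in limma 3.58.1 under R 4.3.3, followed by eBayes with a trend on intensity. Tests were two-sided with Benjamini-Hochberg adjustment over all probe sets tested, at an adjusted p of 0.05, in 15 comparisons of the 4 genes; 19 nitrate comparisons were fitted for description and for the lists. SE are limma's, and 95% intervals use the normal quantile. The labels call the samples biological replicates but do not say that they came from separate cultures, so p-values measure the spread between these samples. Arrays have no read depth, and their number limits the precision: 3 arrays against 3 cannot give an exact permutation p below 0.1 for a single gene.

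Groups follow the titles, since every EpiC source name says continuous whatever the title. The 4 genes, the gene lists, the marker lists and the comparisons were chosen with earlier results of these data known. The text names the 4 genes in every comparison, up to 4 genes per list and comparison that passed with the smallest adjusted p, and the 3 probe sets with the highest Pearson correlation of group means. Extremes of a list's range and neighbours were named after their values were seen. No list gene of the NRT2 and NRT3, CLC and SLAC or AMT families had a probe set named in the annotation used here. Alternatives tried were other normalizations, filters, array signal as a covariate, a replicate block, the arrays kept, only the arrays compared, the mean over 3 treatments, and each replicate left out. The fits were tested on simulated data. Same-numbered arrays deviated together by over 0.1 in every pair in 3 of 21 comparisons, continuous nitrate in LRC and EndoP and nitrate in 3.5 h roots. Plots used Python 3.11.15 with numpy 2.4.6 and matplotlib 3.10.9.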

Additional observations from a re-analysis of the deposited data

How the results depend on the processing

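The number of the 4 genes called changed with the processing only in comparisons of populations in KCl and of protoplasts with 3.5 h roots. For LRC (1 gene called) it was 2 without the 2 sorted-cell arrays that stood apart, with only the arrays compared, or with the mean over 3 treatments, the added gene being NRT2.5 (adjusted p = 0.0154 to 0.0374). For EpiC (1) it was 2 in the first 2 of these settings, AT5G62720 being added (adjusted p = 0.0303 and 0.00929), and 0 with the mean over treatments. For EndoP (1) it was 0 without a filter, with array signal as a covariate or with the mean over treatments. For Peri (1) it was 0 with values as deposited or median-centred. For Stele (1) it was 2 with values as deposited, median-centred, with a 60th percentile filter, without the arrays that stood apart or with only the arrays compared, AT5G62720 being added. The test over all populations (2) gave 1 with the covariate or the mean over treatments, and 3 with values as deposited, AT5G26200 being added (adjusted p = 0.0499). With each replicate left out in turn the counts ran from 1 to 2 for LRC, 1 to 2 for EpiC, 0 to 1 for EndoP, 0 to 1 for Peri, 0 to 2 for Stele and 1 to 3 over all populations, and stayed at 0 elsewhere. The replicate block, in which samples share a number, called AT5G26200 in protoplasts against 3.5 h roots (1 gene, against 0; adjusted p = 0.0376) and changed no other call of the 4 genes. AT1G59740 passed in LRC under every alternative run, and in EpiC under all but the mean over treatments (-0.25, adjusted p = 0.322). Over all alternatives other than leaving out 1 array, 465 of 485 tested values of the 4 genes kept their side of the threshold, and 552 of 576 nitrate differences kept their sign. With values as deposited, continuous nitrate in Peri moved from 0.09 to 0.96 for AT1G59740 and from 0.51 to 1.08 for NRT2.5, while the median of all probe sets moved from -0.125 to 0.437. Counts of calls over all probe sets ran over these alternatives from 3148 to 8403 for LRC (4553 as reported), 642 to 6463 for EpiC (811), 235 to 7427 for EndoP (3141), 582 to 2046 for Peri (779), 503 to 6171 for Stele (3956) and 3125 to 12372 over all populations (7922). They ran from 1 to 68 for MSX in KCl (13), 440 to 2813 for MSX in nitrate (1749), 26 to 592 for glutamine with MSX (134) and 109 to 1005 for MSX and glutamine against nitrate (709). For protoplasts they ran from 0 to 1779 against 3.5 h roots (1411) and from 860 to 3520 against incubated roots (2925), and from 125 to 1399 for 3.5 h against 2 h roots (481). The lowest counts came with array signal as a covariate, values as deposited, only the arrays compared or all 30 one-cycle arrays. With 1 array left out they fell as low as 60 for EndoP, 197 for Stele, 136 for EpiC and 207 for MSX in nitrate. The cause of these changes was not tested.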
